A study of Homo sapiens with 6 samples.

Results

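The MYC, MAX and MXD network is a family of basic helix-loop-helix leucine zipper transcription factors joined by a common partner, MAX. It was followed through 10 genes chosen by name, with earlier results of these data known: MYC, MYCN and MYCL, their partner MAX, and MXD1, MXD3, MXD4, MXI1, MNT and MGA, which also pair with MAX. All 10 were found among the 28503 lines of the expression table, 9 under their own name and MYCL under its older symbol MYCL1. Of the 10, 9 stood at 1 FPKM or more in at least 1 condition, a unit of fragments scaled to transcript length and sequencing depth.

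As background, MYC proteins bind DNA only as pairs with MAX, at E-box sequences of which CACGTG is the preferred form, and drive genes of ribosome production, nucleotide synthesis and growth. MXD proteins and MNT compete for MAX and for the same sites, where they bring in the SIN3 histone deacetylase complex and lower transcription. MGA pairs with MAX inside a Polycomb repressive complex, PRC1.6. MYC is often gained or overexpressed in prostate cancer.

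The libraries came from C4-2, an established human prostate cancer line derived from LNCaP, grown in serum-containing medium at passages 10 to 15. Cells received GSK126, an inhibitor of the catalytic activity of the histone methyltransferase EZH2, or astemizole, an antihistamine reported to disturb the pairing of EZH2 with EED, both set against vehicle. Other cells received lentivirus carrying 1 of 2 EZH2 shRNAs, set against lentivirus carrying a scramble shRNA. The labels state no dose and no time of exposure. They name 6 polyadenylated RNA libraries, and the table has 5 columns, with a single EZH2 shRNA column made by the authors. That column names no hairpin, so whether it holds 1 hairpin library or both is not known. Each condition therefore had 1 value, and no difference below has a replicate check, a standard deviation or a p-value.

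EZH2 itself stood at 17.5 FPKM with GSK126, 9.48 with astemizole and 26.5 with vehicle, and at 3.35 with EZH2 shRNA, against 24.6 with scramble. Read totals are unknown. Steps between low values put the FPKM of 1 read, relative to vehicle, at 0.948 in GSK126, 1.05 in astemizole and 0.858 in scramble. All 10 prostate luminal markers examined were above 0 in every column. Their median ratio (log2 of FPKM + 1) was 0.17 with GSK126, -0.54 with astemizole and -0.56 with EZH2 shRNA. In that order, 3, 9 and 7 of the 10 were below 0, against 54.3%, 55.3% and 47.1% of all genes. Of 3 basal markers, KRT5 and TP63 stayed under 1 FPKM and KRT14 was at 1.27 to 4.64 FPKM. A list of 8 liver markers summed to 176 FPKM with GSK126 and 20.4 with vehicle, but to 2.04 to 5.61 in the other columns. The part of these marker differences in the values of network members was not tested. In bulk RNA, fewer cells of a type and less RNA per cell cannot be told apart.

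MYC was the most abundant member in every column. It stood at 94.4 FPKM with GSK126 and 61.2 with astemizole, against 114 with vehicle. With EZH2 shRNA it was at 101 FPKM, against 99.4 with scramble. The astemizole column was the low one, at 53.9% of vehicle, while the other 4 columns lay close together. On the log2 scale of FPKM + 1, on which all ratios below are given, MYC had -0.26 with GSK126, -0.88 with astemizole and 0.02 with EZH2 shRNA. The 2 control columns differed by -0.19 (scramble over vehicle). With astemizole, 7.24% of the 12945 genes at 1 FPKM or more in any column had a lower ratio than MYC. With scramble in place of vehicle as the control, the astemizole ratio was -0.69 and that of GSK126 -0.07. The EZH2 shRNA ratio was -0.17 against vehicle and changed sign with TPM rescaling or centring as well.

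The other MYC paralogs added little transcript. MYCL, first known from lung cancer, stood at 4.38 FPKM with GSK126 and 4.83 with astemizole, against 4.22 with vehicle, and at 3.16 with EZH2 shRNA, against 3.80 with scramble. MYCN, the paralog amplified in neuroblastoma and active in neuroendocrine prostate cancer, was listed at 0 in all columns but vehicle, where it was at 0.0179 FPKM. A listed 0 may be a failed estimate, since the ribosome biogenesis gene BOP1 was also listed at 0 in every column. MYC made up 92.7% to 97.0% of the summed MYC, MYCN and MYCL level across the 5 columns.

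MAX, the shared partner, was highest with EZH2 shRNA. It stood at 25.3 FPKM with GSK126 and 25.4 with astemizole, against 28.9 with vehicle, and at 39.1 with EZH2 shRNA, against 24.9 with scramble. The ratios were -0.19, -0.18 and 0.63, and for EZH2 shRNA 6.91% of genes had a higher ratio. That value was 0.42 against vehicle, while the 2 drug ratios turned slightly positive against scramble, at 0.02 each. MYC transcript exceeded MAX transcript in every column, by 3.74-fold with GSK126 and 2.41-fold with astemizole, against 3.93-fold with vehicle, and by 2.58-fold with EZH2 shRNA, against 3.99-fold with scramble. MAX overlaps FNTB, a farnesyltransferase subunit gene at 3.92 to 8.62 FPKM across the columns, and counting by strand is not stated. The readthrough gene CHURC1-FNTB, which also overlaps MAX, was at 2.55 to 3.91 FPKM. With EZH2 shRNA the ratio of FNTB was -0.91, opposite in sign to MAX, and that of CHURC1-FNTB was 0.47, the same in sign. Their part in the MAX values was not tested.

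**Figure D1:**
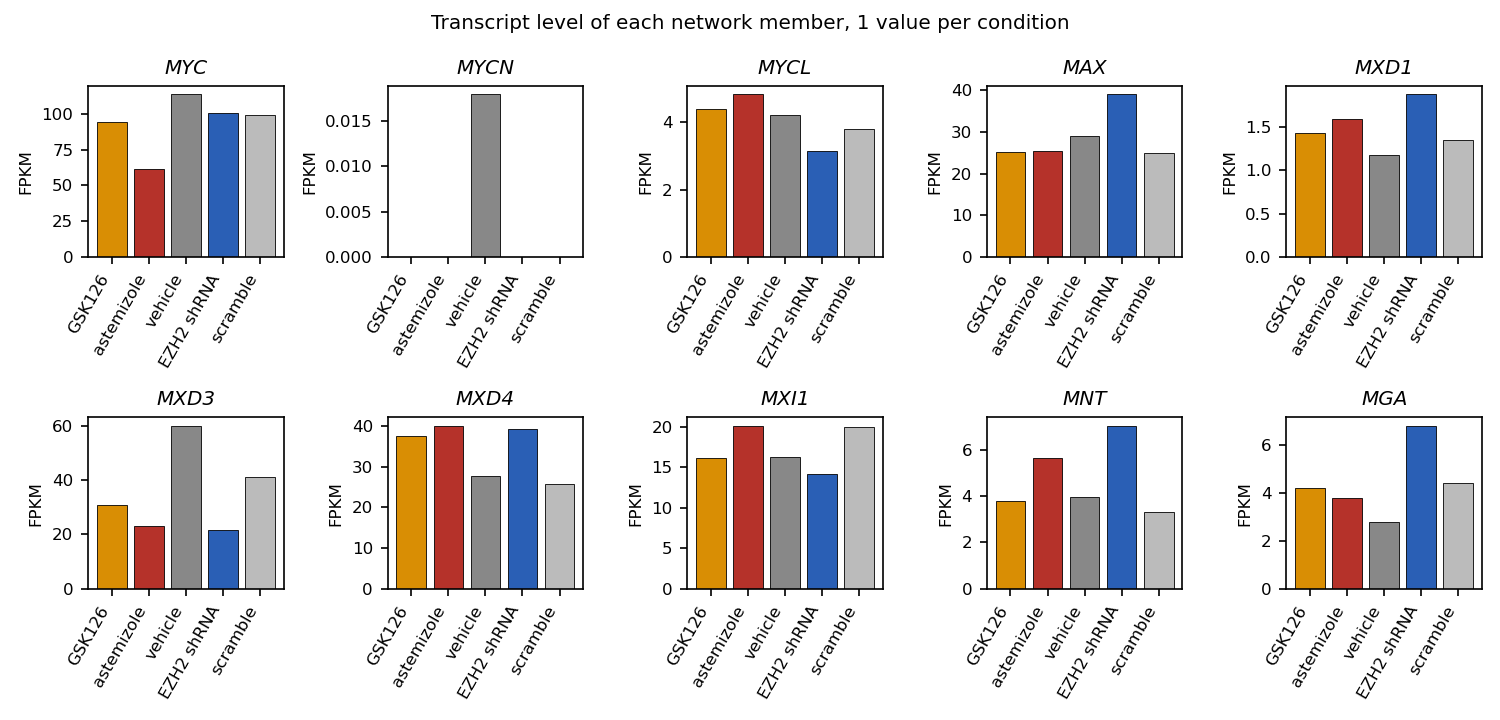
Level of each of the 10 genes in FPKM (y axis, from 0, a separate scale for each gene) in the 5 columns (x axis), 1 value per bar and no error. MYC is lowest with astemizole at 61.2 FPKM, MXD3 is lower with GSK126, astemizole and EZH2 shRNA than in either control, and MXD4 is higher.

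MXD3 was lower in all 3 perturbed columns than in either control, while its relative MXD4 was higher. MXD3 differs from the other MXD genes in mice in being expressed in cycling cells during S phase, whereas MXD4 is associated with differentiating and resting cells. MXD3 stood at 30.7 FPKM with GSK126 and 23.2 with astemizole, against 60.1 with vehicle, and at 21.6 with EZH2 shRNA, against 41.1 with scramble. All 3 perturbed columns were below both controls. The ratios were -0.95 with GSK126, -1.34 with astemizole and -0.90 with EZH2 shRNA, so only the astemizole ratio was past 2-fold. Lower ratios than these were held by 1.31%, 3.07% and 6.10% of genes, in that order. The controls themselves differed by -0.54, and with the other control column the 3 ratios were -0.41, -0.80 and -1.44.

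MXD4 stood at 37.6 FPKM with GSK126 and 40.1 with astemizole, against 27.7 with vehicle, and at 39.3 with EZH2 shRNA, against 25.8 with scramble. Its ratios were 0.43, 0.52 and 0.59, against -0.10 between the controls, and none was past 2-fold. Higher ratios than these were held by 9.87%, 12.6% and 8.05% of genes, in that order. Every perturbed column was above both controls, and the ratios with the other control were 0.53, 0.62 and 0.49. GSK126 and astemizole share the vehicle column, so their ratios are not independent of each other. Within a column, where neither the control nor the scaling enters, the quotient of MXD3 over MXD4 was 0.815 with GSK126 and 0.579 with astemizole, against 2.17 with vehicle, and 0.548 with EZH2 shRNA, against 1.59 with scramble. MXD4 was thus the more abundant of the pair in the 3 perturbed columns and MXD3 in both controls. This quotient was chosen after the values were seen.

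Proliferation markers were lower in the same columns as MXD3. Their 15 levels summed to 715 FPKM with GSK126 and 334 with astemizole, against 1387 with vehicle, and to 177 with EZH2 shRNA, against 1147 with scramble. Their median ratios were -0.87, -1.87 and -2.99, with 4 of 15 at least 2-fold lower with GSK126 (0.966% of all genes), 15 with astemizole (5.52%) and 15 with EZH2 shRNA (5.11%). With the other control column the medians were -0.78, -2.11 and -2.92. The 4 genes with GSK126 were PCNA, CDK1, AURKB and E2F1, and each was less than 2-fold lower than scramble. MCM4, at 31.1 FPKM with GSK126 against 70.8 with scramble, was more than 2-fold lower than scramble. The part of cell cycling in the MXD3 values was not tested. MXD3 also overlaps PRELID1, a mitochondrial lipid transfer gene on the opposite strand, and reads of the shared stretch cannot be assigned where strand is not counted. PRELID1 stood at 195 FPKM with GSK126 and 200.2 with astemizole, against 317 with vehicle, and at 227 with EZH2 shRNA, against 235 with scramble. Its ratios were -0.70, -0.66 and -0.05, and its level, like that of MXD3, was below both controls in each perturbed column. Its part in the MXD3 values was not tested.

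The 250 bases upstream of the annotated start are shown for MXD3, MXD4 and MNT, the 3 antagonists whose ratios to the matched controls were largest, because this family acts on the E-box and the windows differ in holding one. Sequences are from RefSeq (GRCh38.p14), 5′ to 3′ on the strand of the gene, and capitals mark CACGTG. The windows are chr5:177312753-177313002 for MXD3, chr4:2262110-2262359 for MXD4 and chr17:2401061-2401310 for MNT, all on the minus strand. That of MXD3 precedes the outermost of several annotated starts.
MXD3: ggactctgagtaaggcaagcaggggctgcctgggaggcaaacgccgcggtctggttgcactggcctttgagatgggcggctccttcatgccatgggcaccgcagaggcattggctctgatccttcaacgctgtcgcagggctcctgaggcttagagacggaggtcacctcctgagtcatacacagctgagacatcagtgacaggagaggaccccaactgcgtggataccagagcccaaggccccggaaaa
MXD4: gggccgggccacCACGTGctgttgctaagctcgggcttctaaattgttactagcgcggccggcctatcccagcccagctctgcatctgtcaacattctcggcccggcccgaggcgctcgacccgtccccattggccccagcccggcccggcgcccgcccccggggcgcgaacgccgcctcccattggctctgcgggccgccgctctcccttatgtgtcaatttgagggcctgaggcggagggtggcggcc
MNT: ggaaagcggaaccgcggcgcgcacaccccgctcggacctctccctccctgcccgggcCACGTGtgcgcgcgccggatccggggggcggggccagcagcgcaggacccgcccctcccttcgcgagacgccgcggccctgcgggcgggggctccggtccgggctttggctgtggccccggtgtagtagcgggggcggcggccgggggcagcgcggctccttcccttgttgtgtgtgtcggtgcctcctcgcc
CACGTG, which reads the same on both strands, began 238 bases before the start of MXD4 and 193 bases before that of MNT. It was found in 2 of the 14 member windows searched, which covered 9 members, and no window of MYC was used. Of the 35116 windows of this length that were searched, 6.34% held CACGTG. Windows on the chromosome that carries MYC were left out of the search. The letters TTTCCCGC, TTTGGCGC, TTTCGCGC and TTTGCCGC, forms of the E2F site, were searched on both strands in the same way and found in 2.79% of all windows. Among members they were found for MYCN and MGA, with 2 overlapping matches in MYCN, and not in the MXD3 window. A match describes the sequence only, and no binding was measured here.

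Of the remaining antagonists, MNT and MGA were highest with EZH2 shRNA. MNT, a broadly expressed antagonist that opposes MYC in growing cells, stood at 3.79 FPKM with GSK126 and 5.66 with astemizole, against 3.96 with vehicle, and at 7.06 with EZH2 shRNA, against 3.32 with scramble. The astemizole and EZH2 shRNA columns were the high ones. The ratios were -0.05, 0.43 and 0.90, and 2.66% of genes had a higher ratio with EZH2 shRNA. The plain quotient of FPKM there was 2.13, and adding 1 FPKM to both values brings it under 2-fold. With 0.1 FPKM added instead, the ratio was 1.07, and against vehicle it was 0.70.

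MGA, the MAX partner of PRC1.6, stood at 4.20 FPKM with GSK126 and 3.79 with astemizole, against 2.80 with vehicle, and at 6.82 with EZH2 shRNA, against 4.41 with scramble. The vehicle column was the lowest of the 5. Its ratios of 0.45, 0.33 and 0.53 were close to or under the difference between the controls, 0.51 for scramble over vehicle. Against scramble the GSK126 and astemizole ratios were -0.06 and -0.18, so their direction depends on the control, while the EZH2 shRNA ratio against vehicle was 1.04.

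MXI1 and MXD1 differed less. MXI1, also called MXD2 and studied as a candidate tumour suppressor in prostate cancer, stood at 16.1 FPKM with GSK126 and 20.2 with astemizole, against 16.4 with vehicle, and at 14.2 with EZH2 shRNA, against 20.1 with scramble. The GSK126 level lay near vehicle and the astemizole level near scramble. The EZH2 shRNA column was the lowest, with ratios of -0.02, 0.29 and -0.47. Between the controls the ratio was 0.28, and the EZH2 shRNA ratio was -0.19 against vehicle. MXD1, the founding MXD gene, linked to terminal differentiation, was the least abundant of the antagonists at 1.17 to 1.88 FPKM. It was lowest with vehicle and highest with EZH2 shRNA, and its ratios were 0.16, 0.25 and 0.29, against 0.12 between the controls.

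**Figure D2:**
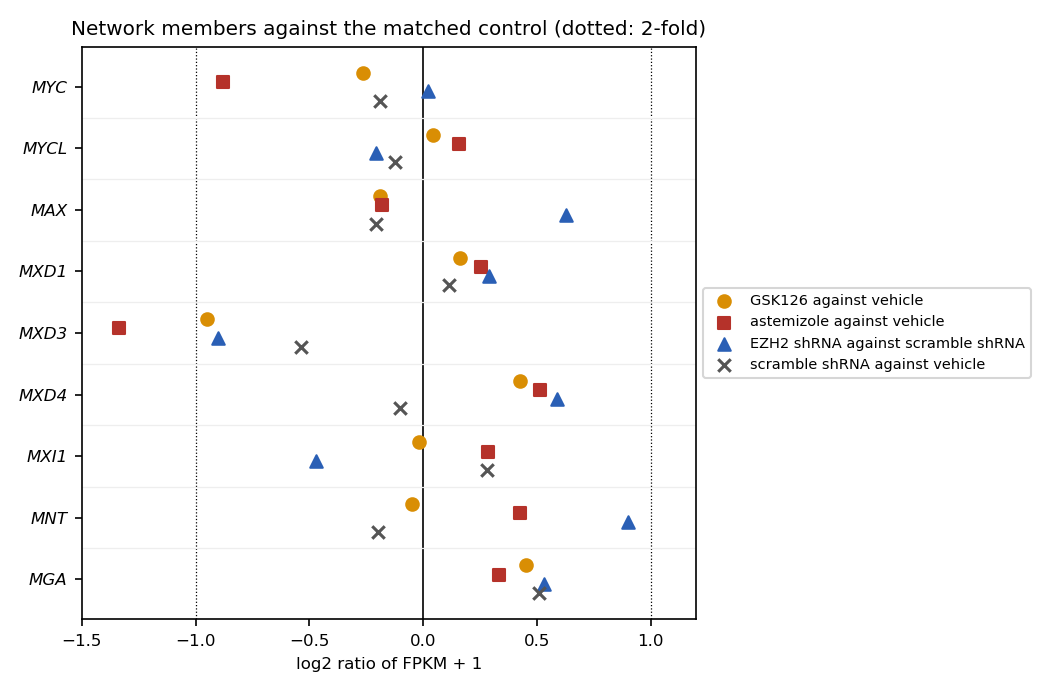
Log2 ratio of FPKM + 1 (x axis) for the 9 members at 1 FPKM or more in any column (y axis) in each comparison, with scramble shRNA over vehicle as crosses for the difference between controls. Only MXD3 with astemizole lies past 2-fold (dotted lines), and MXD4 lies between 0.43 and 0.59 in all 3 comparisons.

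In all, 0 of 9 members were past 2-fold with GSK126, where 2.02% of all genes were. With astemizole 1 of 9 was, MXD3, against 9.05% of all genes, and with EZH2 shRNA 0 of 9, against 7.07%. The median ratios of the 9 members were -0.02, 0.25 and 0.29, beside -0.04, -0.06 and 0.03 for all genes. Between scramble and vehicle 0 of 9 members and 1.04% of all genes were past 2-fold (0.17% higher and 0.873% lower), and the ratio over all genes had a standard deviation of 0.33. That is a spread across genes and not across replicates.

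The order of the members by level was similar in all columns, with MYC first and MXD1 and MYCN last. MXD4 was the second most abundant in each perturbed column, whereas MXD3 was second in both controls. With EZH2 shRNA, MXD4 at 39.3 FPKM and MAX at 39.1 cannot be ordered without replicates, nor can MAX and MXD4 in either control.

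Summed over MXD1, MXD3, MXD4, MXI1 and MNT, the antagonists stood at 89.6 FPKM with GSK126 and 90.7 with astemizole, against 109 with vehicle, and at 84.0 with EZH2 shRNA, against 91.6 with scramble. MXD3 made up 34.2% of this sum with GSK126 and 25.6% with astemizole, against 55.0% with vehicle, and 25.7% with EZH2 shRNA, against 44.9% with scramble. Without MXD3 the sum was higher in each perturbed column, at 59.0 FPKM with GSK126 and 67.5 with astemizole, against 49.2 with vehicle, and at 62.4 with EZH2 shRNA, against 50.5 with scramble. That sum was not among those planned, and it leaves out MXD3, which was lower in each perturbed column. The MYC family sum divided by the antagonist sum was 1.10 with GSK126 and 0.728 with astemizole, against 1.08 with vehicle, and 1.24 with EZH2 shRNA, against 1.13 with scramble. The astemizole column was thus the one in which antagonist transcripts exceeded those of the MYC family. These are transcript levels, and protein was not measured.

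**Figure D3:**
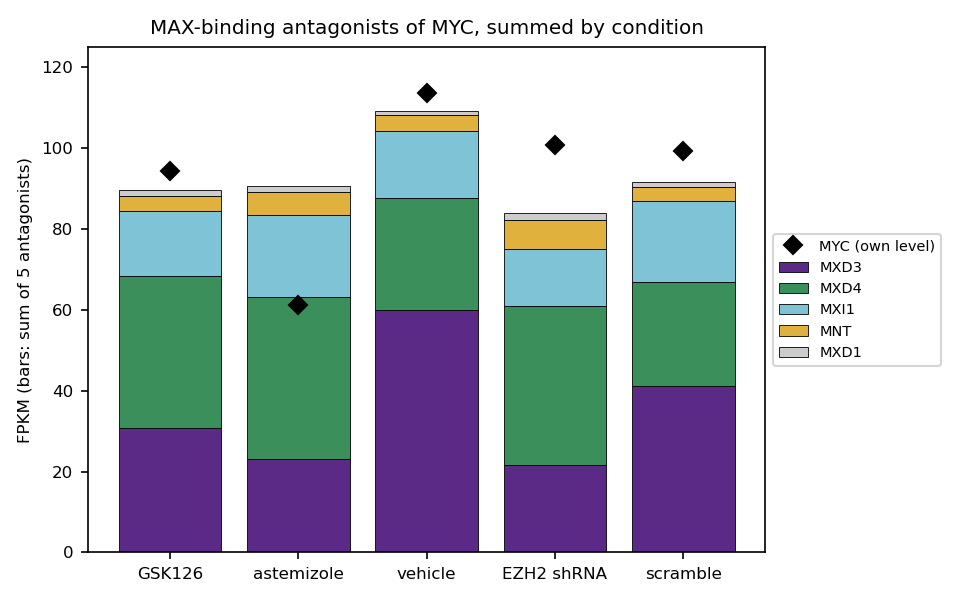
Stacked bars give the FPKM of MXD3, MXD4, MXI1, MNT and MXD1 in each column and diamonds the FPKM of MYC on the same axis. MYC lies above the summed antagonists in every column except astemizole, where it is at 61.2 FPKM beside a sum of 90.7.

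Genes whose pattern over the 5 columns was most like that of a member were sought for MXD3 and MGA, the members spanning 1 or more on the log2 scale. Likeness was the root mean square difference of centred log2 values over the 5 columns, among 9323 genes. Nearest to MXD3 were CTXN1, MGME1, a mitochondrial genome exonuclease gene, and LIG1, the replicative DNA ligase gene, at differences of 0.062, 0.068 and 0.083. LIG1 stood at 5.51 FPKM with GSK126 and 3.43 with astemizole, against 10.3 with vehicle, and at 3.40 with EZH2 shRNA, against 7.94 with scramble. Nearest to MGA were EP300, which encodes the acetyltransferase p300, SLC25A30 and ATP11B, at 0.050, 0.053 and 0.055. EP300 was at 8.64 FPKM with GSK126 and 7.59 with astemizole, against 5.61 with vehicle, and at 12.8 with EZH2 shRNA, against 9.32 with scramble.

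Nucleolar genes known to be induced by MYC had negative median ratios with both drugs. With astemizole all 29 measured nucleolar and ribosome production genes were below 0 (55.3% of all genes were), with a median of -0.61, and 3 were at least 2-fold lower, against 5.52% of all genes. These 3 were the box C/D particle proteins NOP58 at -1.13 and NOP56 at -1.12 and the pseudouridine synthase DKC1 at -1.10. Each of the 3 astemizole levels was less than 2-fold lower than the scramble level. With GSK126 26 of 29 were below 0 (54.3% of all genes), with a median of -0.42 and 0 past 2-fold (0.966% of all genes were at least 2-fold lower). With EZH2 shRNA 9 of 29 were below 0 (47.1% of all genes), with a median of 0.13 and 0 past 2-fold. The EZH2 shRNA median was -0.06 against vehicle, so its sign depends on the control. Between the controls 24 of 29 were below 0 (65.1% of all genes), with a median of -0.20. The GSK126 median was -0.21 after TPM rescaling and -0.28 against scramble.

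The 34 measured metabolic and growth genes induced by MYC had medians of -0.49 with GSK126, -0.69 with astemizole and -0.36 with EZH2 shRNA, beside all-gene medians of -0.04, -0.06 and 0.03. The GSK126 median was -0.20 against scramble and -0.28 after TPM rescaling. With GSK126 0 were past 2-fold (2.02% of all genes were), and all 34 were below 0, against 54.3% of all genes. Between the controls 27 of 34 were below 0, against 65.1% of all genes. With astemizole 29 were below 0 (55.3% of all genes), and 8 were at least 2-fold lower (5.52% of all genes), led by the polyamine enzyme ODC1 at -2.68, the lactate dehydrogenase gene LDHA at -2.39 and the hexokinase gene HK2 at -1.40. The 2 at least 2-fold higher (3.54% of all genes were), SLC3A2 at 1.23 and SLC7A5 at 1.09, encode both chains of an amino acid transporter. The amino acid transporter gene SLC1A5 at 0.81 and the serine and glycine enzyme gene SHMT2 at 0.60, named after their values were seen, were also above 0. With EZH2 shRNA 6 were at least 2-fold lower, against 5.11% of all genes, and 0 higher. They were led by ODC1 at -1.79, the telomerase gene TERT at -1.54 and LDHA at -1.51. Among these 6 were also MTHFD2 at -1.44, HK2 at -1.37 and PRPS2 at -1.01. The part of MYC in these values was not tested.

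Of 10 measured genes known to be repressed by MYC, 4 were at least 2-fold higher with astemizole (3.54% of all genes were): CDKN2B at 3.17, the ferritin heavy chain gene FTH1 at 2.21, CDKN1A at 1.90 and the stress gene GADD45A. CDKN2B and CDKN1A encode inhibitors of cyclin-dependent kinases, and CDKN1A and GADD45A are also p53 targets. CDKN2B stood at 0.463 FPKM with GSK126 and 10.5 with astemizole, against 0.282 with vehicle, and at 1.59 with EZH2 shRNA, against 0.214 with scramble. It thus passed the filter at 1 FPKM only through the columns in which it was high, and both its control values lay near the floor. With EZH2 shRNA 4 were higher (1.96% of all genes were), CDKN1A at 2.92, the matrix gene THBS1 at 2.36, GADD45A and CDKN2B at 1.10, and NDRG1 was lower at -1.22 (5.11% of all genes were). The NDRG1 level there, 28.4 FPKM, was less than 2-fold lower than vehicle, at 53.1. GADD45A stood at 29.3 FPKM with GSK126 and 40.6 with astemizole, against 15.9 with vehicle, and at 34.6 with EZH2 shRNA, against 10.7 with scramble. With GSK126 THBS1 alone was past 2-fold, at 1.22, where 1.06% of all genes were higher. The list medians were 0.02, 0.32 and 0.26. With the other control column they were 0.27, 0.75 and -0.07. The astemizole median was 0.0067 with a filter at 5 FPKM and 0.0069 without a filter and with 0.1 FPKM added. The GSK126 median was -0.02 under both of these settings. Each of CDKN1A, THBS1 and GADD45A was lower in scramble than in vehicle, by -1.03, -0.98 and -0.53.

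Among partners of the network, the SIN3 subunit gene SAP30 was lower in every comparison. Of 15 SIN3 complex genes, SAP30, which encodes a protein that helps hold histone deacetylases to SIN3, was at 15.7 FPKM with GSK126 and 5.38 with astemizole, against 36.9 with vehicle, and at 6.20 with EZH2 shRNA, against 23.4 with scramble. Its ratios were -1.18, -2.57 and -1.76, and it was below both controls in each perturbed column. The controls differed by -0.63 (scramble over vehicle), and the GSK126 level was less than 2-fold lower than the scramble level. The only other member of that list past 2-fold was RBBP7, a histone chaperone, at -1.12 with astemizole. Its level there, 84.6 FPKM, was less than 2-fold lower than scramble, at 160. Against the matched controls 1, 2 and 1 of 15 genes were thus at least 2-fold lower, against 0.966%, 5.52% and 5.11% of all genes. The list medians were -0.18, -0.39 and -0.01. After TPM rescaling the GSK126 median was 0.03. Of 12 MYC coactivators, ACTL6A at -1.05 and the helicase gene RUVBL1 at -1.03 were past 2-fold, both with astemizole, where 5.52% of all genes were at least 2-fold lower. Their astemizole levels of 44.5 and 75.5 FPKM were less than 2-fold lower than scramble, at 71.7 and 140. The median of the 12 coactivators was -0.43 with astemizole, -0.15 with GSK126 (0.04 after TPM rescaling) and -0.02 with EZH2 shRNA.

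Among 16 genes that control MYC protein turnover, 3 were at least 2-fold lower with astemizole (5.52% of all genes were) and 4 with EZH2 shRNA (5.11%). AURKA, a mitotic kinase that also shields MYC proteins from degradation, had -2.77 and -2.94. KIAA1524, now CIP2A, an inhibitor of the phosphatase that destabilises MYC, had -1.80 and -2.17, and the ubiquitin ligase gene SKP2 had -1.50 and -1.66. USP37, a deubiquitinase gene, had -1.35 with EZH2 shRNA, and the kinase gene PIM1 was higher with astemizole at 1.04 (3.54% of all genes were past 2-fold upward). USP37 stood at 2.15 FPKM with EZH2 shRNA, against 7.05 with scramble and 4.81 with vehicle. The controls differed by 0.47 (scramble over vehicle), and on the scale of FPKM + 1 its EZH2 shRNA level was less than 2-fold lower than vehicle. With GSK126 0 of the 16 were past 2-fold (2.02% of all genes were). The 11 partners of MGA in PRC1.6 had 0 members past 2-fold in any comparison (2.02%, 9.05% and 7.07% of all genes were), with medians of -0.25, -0.42 and -0.14. With the other control column the medians were 0.07, -0.12 and -0.44, and all 11 genes were lower in scramble than in vehicle (65.1% of all genes were).

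In the parallel MLX branch, whose MLXIP and MLXIPL proteins pair with MLX and sense glucose, 1 of 5 genes was past 2-fold, with GSK126 (2.02% of all genes were). This was TXNIP, a main target of that branch, at 91.6 FPKM with GSK126 and 39.3 with astemizole, against 42.9 with vehicle, and at 80.8 with EZH2 shRNA, against 67.4 with scramble. The GSK126 ratio was 1.08, the controls differed by 0.64, and the GSK126 level was under 2-fold of the scramble level. The list of noncoding RNAs at the MYC locus or of MYC paralogs had 9 names. Values were found only for PVT1, PCAT1, CCAT1 and MYCNOS, and 2 of these passed 1 FPKM in any column. PVT1, next to MYC, had ratios of -0.37, -0.32 and 0.45, and the prostate cancer transcript PCAT1 had 0.01, -0.46 and 0.97.

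**Figure D4:**
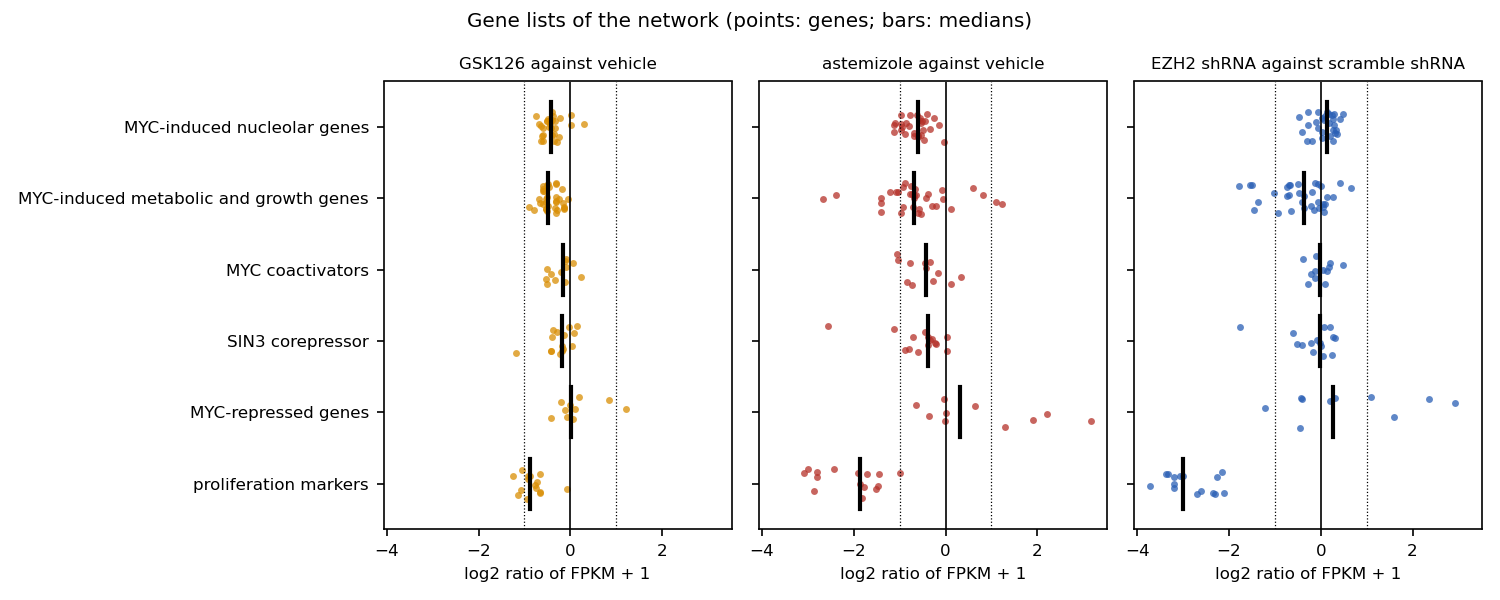
Log2 ratio of FPKM + 1 (x axis) of each gene (points, spread vertically for sight only) in 6 gene lists (y axis) in the 3 comparisons, with the list median as a bar and 2-fold as dotted lines. Nucleolar genes have medians of -0.42 with GSK126, -0.61 with astemizole and 0.13 with EZH2 shRNA, and proliferation markers -0.87, -1.87 and -2.99.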

How the data were processed

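Expression values are FPKM as deposited by the authors, per the labels, which name the unit. TopHat2, Cuffdiff and build hg19 are named in the submitters' processing notes. The annotation and the options were not given in the sources used here. Nor was it stated whether the EZH2 shRNA column was made from 1 or from both of the 2 hairpin libraries. FPKM holds no read totals, so no counting interval is given.

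From 28503 lines, 27 date-like names and 1623 short noncoding RNA genes were left out. The 12945 genes at 1 FPKM or more in any column were kept, 12104 with a known symbol. Ratios are log2 of FPKM + 1, treated over control, which understates differences of low genes. Past 2-fold means 1 or more either way. The read spacing used the fullest window of ratios to vehicle among genes under 0.5 FPKM in both columns. All members were named; of each other list the 3 largest ratios past 2-fold were, and others were added after their values were seen. Members and gene lists were chosen with earlier results of these data known. Steps were tested on simulated data (Python 3.11.15, pandas 2.3.3). Promoter letters came from RefSeq GRCh38.p14 and were matched by symbol. No coordinates were converted between builds.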

Additional observations from a re-analysis of the deposited data

How the results depend on the processing

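Ratios were recomputed with 0.1 FPKM added in place of 1, with and without the filter, with a filter at 5 FPKM, after TPM rescaling, after centring on the median gene, and with the other control column. Of 156 member ratios recomputed, 150 moved by less than 0.33, the standard deviation between the controls. This count is not a measure of robustness. The filter at 5 FPKM cannot change a ratio, and removing the filter repeats the ratios with 0.1 FPKM added. The 6 that moved more were MXD3 and MGA in each comparison with the other control. With that control the shift of a gene equals its difference between the controls. Of 27 member ratios, 20 kept their sign under every setting run, and 7 did not: MAX, MXI1, MNT and MGA with GSK126, MAX and MGA with astemizole, and MYC with EZH2 shRNA. The count of members past 2-fold was 0 for astemizole with scramble as the control. For EZH2 shRNA it was 1 (MNT) with a pseudocount of 0.1 FPKM, with or without the filter, and 2 (MXD3 and MGA) with vehicle as the control. Recomputed list medians moved by less than 0.33 in 269 cases and by more in 30. The median of the liver markers with astemizole, -1.13, reversed to 0.017 against scramble. TPM rescaling set the median of all genes with GSK126 at 0.15, against -0.04 as deposited, and 79.7% of genes past 2-fold were then higher, against 52.3%. With a pseudocount of 0.1 FPKM, genes past 2-fold numbered 610 with GSK126, 1777 with astemizole and 1500 with EZH2 shRNA, and without a filter 1501, 2883 and 2270, against 262, 1172 and 915. No paired analysis was possible because each condition has 1 value.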

Other observations

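Pattern neighbours of members outside the span rule were chosen after their values were seen. Nearest to MYC was ALDH18A1, a proline synthesis gene, at a root mean square difference of 0.022. It stood at 60.7 FPKM with GSK126 and 39.1 with astemizole, against 70.5 with vehicle, and at 62.5 with EZH2 shRNA, against 62.4 with scramble. The next were the RNA helicase gene DDX39B at 0.030 and the chaperonin subunit gene CCT4 at 0.033. CCT4 was at 123 FPKM with GSK126 and 82.4 with astemizole, against 155 with vehicle, and at 139 with EZH2 shRNA, against 130 with scramble. Nearest to MXD4 were STX7, DIP2A and FTO, at 0.045, 0.050 and 0.054. With 5 values a gene, such likeness is a description of these libraries.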
